A study of Homo sapiens with 18 samples.

Results

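The RNA polymerase I and nucleolar scaffold genes followed here are 10 genes taken by symbol from a count table of 41285 genes: POLR1A, POLR1B, POLR1C, POLR1E, RRN3, UBTF, TCOF1, NOLC1, NCL and NPM1. All 10 were found and all passed the filter on low counts, so that each was tested among the 22143 genes that did. RNA was sequenced from K562, a chronic myeloid leukaemia cell line, as a parental line and as the isogenic lines VPR-D9 and KRAB-D9, in which doxycycline switches on dCas9-VPR, an activator of transcription, or dCas9-KRAB, a repressor. The series concerns SAMD9, an interferon-induced gene that its title links to ribosome production, and interferon alpha (IFN) served to raise SAMD9 in some groups. There were 18 libraries, 2 for each of 9 groups. VPR-D9 cells were in doxycycline groups named D2000 and D6 or untreated. KRAB-D9 cells had doxycycline with IFN, doxycycline, IFN or no treatment. Parental cells had IFN or no treatment. IFN was given at 1000 U/mL for 24 hours, and doxycycline, where the dose is stated, at 2 µg/mL. KRAB-D9 cells that received both had doxycycline for 24 hours before IFN and then throughout. The sources used here do not give the meaning of D2000 and D6, whether their doxycycline doses differed, the duration of doxycycline without IFN, or whether VPR-D9 and KRAB-D9 are each 1 clone. No parental group with doxycycline was analysed here, so in VPR-D9 and KRAB-D9 cells the effect of the drug and that of the induced protein cannot be told apart.

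RNA polymerase I transcribes the repeated ribosomal DNA in the nucleolus and thereby makes the precursor of the large ribosomal RNAs. UBTF binds the ribosomal DNA and keeps it open, and RRN3 carries the polymerase to the promoter-bound selectivity factor. Treacle, nucleolin, nucleophosmin and the NOLC1 product are abundant nucleolar phosphoproteins that scaffold the nucleolus and take part in rRNA processing and ribosome assembly. Rapidly growing cells such as leukaemia lines keep this machinery at a high level.

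Among the polymerase subunits, POLR1A (ENSG00000068654.17, chromosome 2, 86020216 to 86106155, GRCh38) encodes the largest, catalytic subunit and POLR1B (ENSG00000125630.16, chromosome 2, 112541915 to 112579818) the subunit with which it forms the active centre. POLR1C (ENSG00000171453.20, chromosome 6, 43509702 to 43562419) encodes a subunit that RNA polymerase III also uses, and POLR1E (ENSG00000137054.16, chromosome 9, 37485948 to 37503697) a subunit specific to RNA polymerase I. The initiation factors are RRN3 (ENSG00000085721.13, chromosome 16, 15060033 to 15094311) and UBTF (ENSG00000108312.15, chromosome 17, 44205033 to 44221626). The scaffold genes are TCOF1, which encodes treacle (ENSG00000070814.22, chromosome 5, 150357629 to 150400308), NOLC1 (ENSG00000166197.17, chromosome 10, 102152176 to 102163871), NCL for nucleolin (ENSG00000115053.17, chromosome 2, 231453531 to 231483641) and NPM1 for nucleophosmin (ENSG00000181163.14, chromosome 5, 171387116 to 171411810). Levels below are counts per 1e6 scaled counts (CPM) after TMM scaling, which corrects for differences in library composition. Per kb of gene model and averaged over the 18 libraries, NPM1 stood highest at 315 CPM per kb, followed by NCL at 177 and NOLC1 at 103 CPM per kb. The subunits, the initiation factors and the scaffold gene TCOF1 lay lower, from 10.0 CPM per kb for POLR1B to 37.2 for POLR1E. UBTF stood at 33.4, TCOF1 at 24.9 and RRN3 at 13.7 CPM per kb.

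Promoter windows of 300 bases, from 250 before to 50 after the transcription start, were available for 7 of the 10 genes in RefSeq (GRCh38.p14), in 11 windows. They were searched on both strands for CACGTG (the E-box bound by MYC and MAX), CCGGAAG (an ETS family motif), GGGCGG (the SP1 motif) and TATAAA, and matches were allowed to overlap. CCGGAAG was in 5 of the 11 windows, which belong to POLR1B, POLR1C and RRN3, and in 10.3% of all 35116 promoter windows. The RRN3 windows overlap each other and hold the same CCGGAAG match. GGGCGG was in 6 of the 11 windows, which belong to POLR1B, POLR1C, UBTF and NCL, and in 45% of all windows. CACGTG and TATAAA were in none of the 11 windows, against 7.26% and 11.5% of all windows. The promoters shown come from a subunit, an initiation factor and a scaffold gene. Of the 11 windows, that of POLR1C held the most CCGGAAG matches (3, of which a pair overlaps on opposite strands) and that of UBTF the most GGGCGG matches (7), and NCL, with 2 GGGCGG matches, is among the genes that fell furthest in D2000. Capitals mark CCGGAAG and GGGCGG on either strand, and each sequence reads 5′ to 3′ on the strand of its gene. A match describes the letters of these windows and nothing more.
POLR1C, chr6:43516839-43517138, plus strand: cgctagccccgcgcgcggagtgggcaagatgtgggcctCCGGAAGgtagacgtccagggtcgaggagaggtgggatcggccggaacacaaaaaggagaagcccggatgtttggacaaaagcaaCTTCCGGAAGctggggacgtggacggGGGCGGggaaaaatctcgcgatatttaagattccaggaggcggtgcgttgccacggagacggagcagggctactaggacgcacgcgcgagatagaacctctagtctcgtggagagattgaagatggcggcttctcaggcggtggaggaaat
UBTF, chr17:44220833-44221132, minus strand: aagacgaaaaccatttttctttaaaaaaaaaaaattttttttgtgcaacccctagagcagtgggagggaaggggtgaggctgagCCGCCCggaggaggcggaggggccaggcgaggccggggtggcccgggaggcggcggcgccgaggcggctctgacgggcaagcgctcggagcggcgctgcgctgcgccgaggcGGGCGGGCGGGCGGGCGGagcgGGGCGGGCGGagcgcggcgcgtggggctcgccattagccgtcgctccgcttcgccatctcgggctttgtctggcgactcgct
NCL, chr2:231464435-231464734, minus strand: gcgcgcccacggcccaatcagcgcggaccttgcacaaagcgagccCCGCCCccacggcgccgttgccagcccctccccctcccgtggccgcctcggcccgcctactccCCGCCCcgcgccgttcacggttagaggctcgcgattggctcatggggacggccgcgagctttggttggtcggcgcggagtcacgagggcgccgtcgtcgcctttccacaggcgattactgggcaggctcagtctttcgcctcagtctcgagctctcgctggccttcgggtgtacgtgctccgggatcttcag

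Libraries held 32.7 M to 63.0 M counts (M for 1e6), and KRAB-D9 with IFN replicate 1 was the shallowest. SAMD9, the targeted gene, stood at 974 and 948 CPM in the D2000 libraries, at 936 and 960 CPM in D6 cells and at 59.9 and 61.4 CPM in untreated VPR-D9 cells. In KRAB-D9 cells it was at 0.849 and 0.745 CPM with doxycycline and IFN, 0 and 0.117 CPM with doxycycline (0 and 6 counts), 55.0 and 53.5 CPM with IFN and 0.750 and 0.364 CPM untreated. Parental cells had 168 and 154 CPM with IFN and 9.31 and 9.05 CPM without. Untreated VPR-D9 cells thus stood above untreated parental cells in SAMD9, and untreated KRAB-D9 cells below them, before any doxycycline. All 10 K562 markers, among them GATA1 and KLF1, were above 1 CPM, and the T cell and monocyte markers averaged below it, while COL1A1 and COL1A2 of the fibroblast markers and EPCAM of the epithelial markers averaged above it. Libraries of KRAB-D9 with IFN differed most within a group: the median gap between replicates over the 10 genes was 0.08 on the log2 scale, against 0.02 to 0.07 in the other groups. Nothing in the labels says that the replicates of a group are separate cultures; the p-values below therefore measure only the spread between these libraries, which may be technical.

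In D2000, all 10 genes were lower than in untreated VPR-D9 cells. The scaffold genes and POLR1E fell furthest, to levels 2.28-fold to 2.64-fold lower, the other subunits and RRN3 fell less, and UBTF fell least. For this comparison 24.2% of the 22143 genes tested were called lower (quasi-likelihood test of edgeR, adjusted p under 0.05 by Benjamini-Hochberg). The median log2 fold change was -1.06 over the 10 genes and 0.06 over all genes tested, or -0.17 over the 9204 genes with at least 10 CPM. The 10 genes together took 0.277 and 0.274% of all counts in the D2000 libraries, against 0.518 and 0.524% in the untreated VPR-D9 libraries. RNA here comes from whole cultures, so a smaller share of expressing cells and less RNA per cell cannot be told apart.

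**Figure D1:**
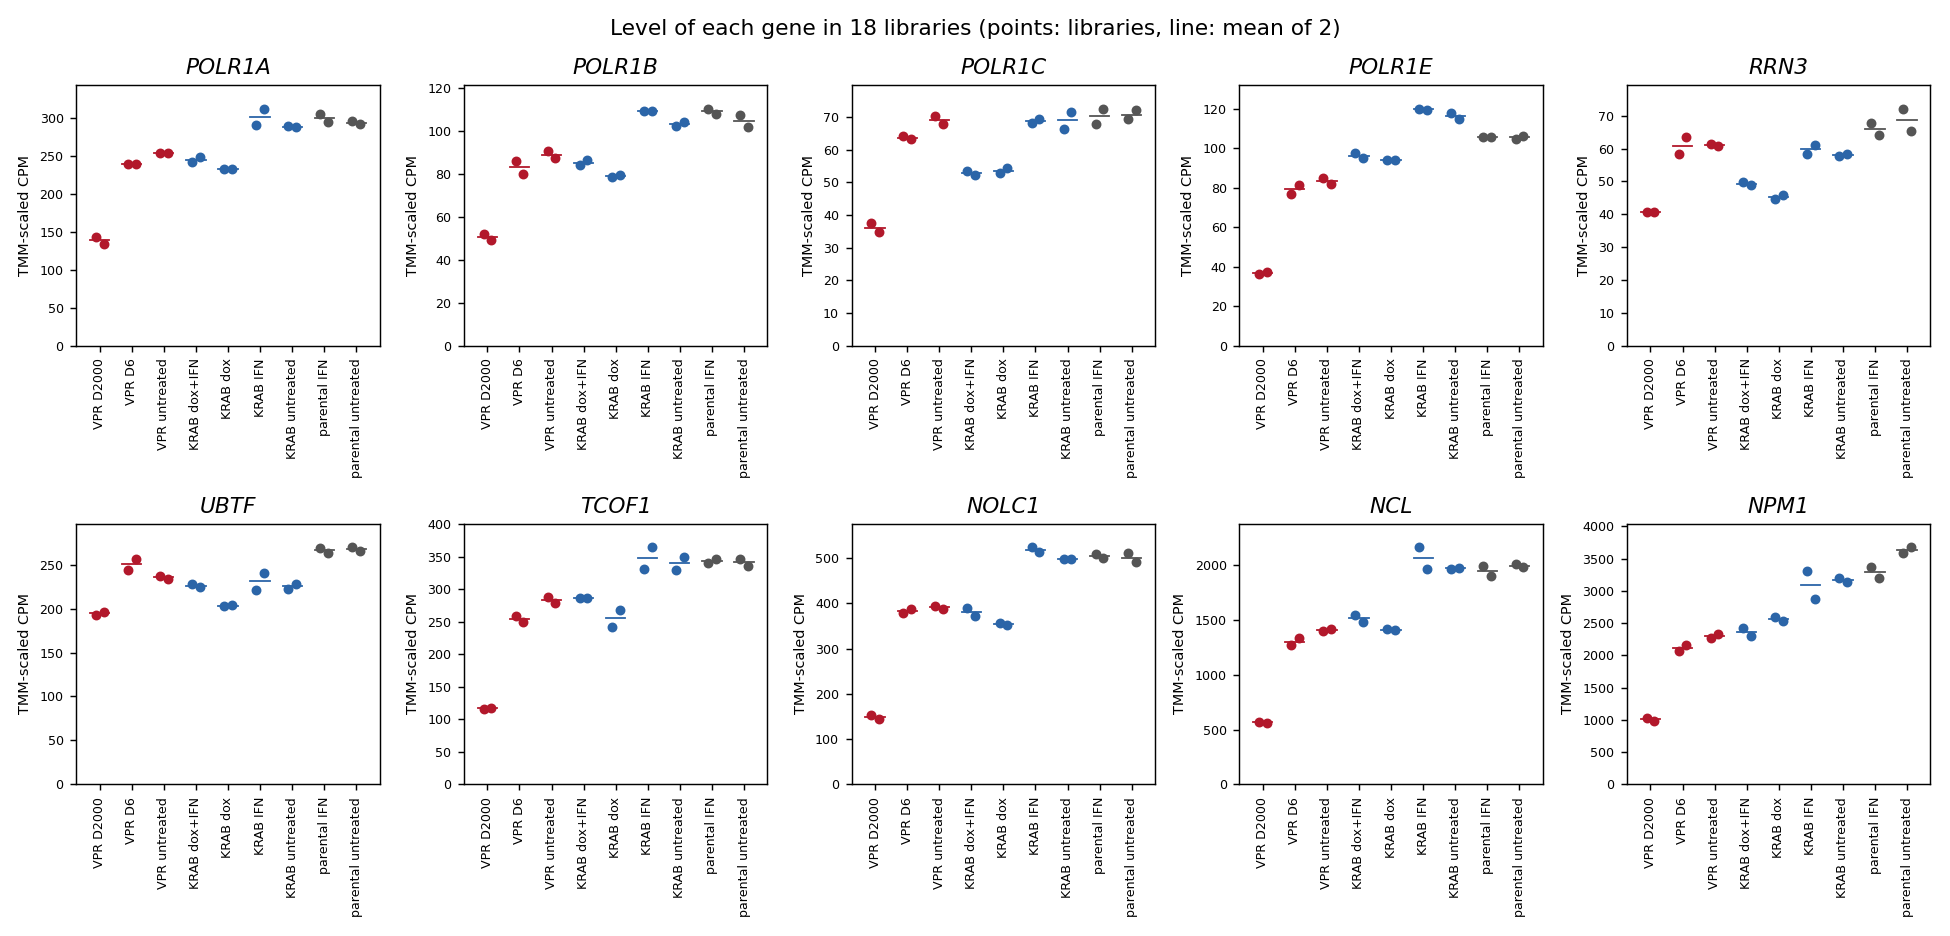
Level of each gene in every library, in TMM-scaled CPM (vertical axes start at 0 and differ between genes). Points are libraries and lines the means of 2; red is VPR-D9, blue KRAB-D9 and grey the parental line. The 2 D2000 libraries are the lowest of all 18 for each gene, by a wide margin for NOLC1 and by a narrow one for UBTF. The share of all genes with this order was not counted.

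Among the scaffold genes, NOLC1 had 152 and 144 CPM in D2000, against 394 and 389 CPM in untreated VPR-D9 cells. Its log2 fold change was -1.40 ± 0.04 (standard error; n = 2 and 2; edgeR adjusted p = 6.3e-28), a level 2.64-fold lower. NCL had 573 and 563 CPM in D2000, against 1403 and 1420 CPM untreated (-1.31 ± 0.04, edgeR adjusted p = 2.25e-27). Both D2000 libraries of these genes lay far below both untreated libraries. TCOF1, which is mutated in Treacher Collins syndrome, had 116 and 117 CPM in D2000, against 288 and 279 CPM untreated (-1.28 ± 0.05, edgeR adjusted p = 2.89e-24). NPM1 had 1034 and 982 CPM in D2000, against 2275 and 2337 CPM untreated (-1.19 ± 0.05, edgeR adjusted p = 3.96e-17). None of the 4 scaffold genes had overlapping groups, though the share of all genes without overlap was not counted. Only 1.28, 1.53, 1.73 and 2.27% of the genes with at least 10 CPM had a lower log2 fold change than NOLC1, NCL, TCOF1 and NPM1, in that order.

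Of the subunits, POLR1E was closest to the scaffold genes. It had 36.1 and 37.2 CPM in D2000, against 84.8 and 82.0 CPM in untreated VPR-D9 cells, a log2 fold change of -1.19 ± 0.05 (edgeR adjusted p = 1.51e-22). POLR1A had 144 and 134 CPM in D2000, against 254 and 254 CPM untreated (-0.87 ± 0.04, edgeR adjusted p = 8.36e-21). The catalytic pair moved by similar amounts, POLR1B reaching 52.0 and 49.3 CPM in D2000, against 90.5 and 87.1 CPM untreated (-0.81 ± 0.05, edgeR adjusted p = 4.85e-17). POLR1C, the subunit shared with RNA polymerase III, had 37.5 and 34.9 CPM in D2000, against 70.4 and 68.0 CPM untreated (-0.93 ± 0.06, edgeR adjusted p = 2.87e-17). Its gene model overlaps XPO5 and YIPF3, whose counts were 430 and 124% of those of POLR1C. The sources used here do not give the strand setting of the counting, so the POLR1C values are less certain than the others.

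The initiation factors fell less. RRN3 had 40.6 and 40.6 CPM in D2000, against 61.5 and 60.9 CPM in untreated VPR-D9 cells (-0.59 ± 0.06, edgeR adjusted p = 2.63e-11). RRN3 shares sequence with 3 annotated pseudogenes, whose counts came to 13.6 to 24.4% of its own across libraries, and it also overlaps PDXDC1. UBTF had 192 and 197 CPM in D2000, against 237 and 234 CPM untreated, a log2 fold change of -0.28 ± 0.04 (edgeR adjusted p = 2.77e-07). Its D2000 libraries were below both untreated ones, but 39.7% of genes with at least 10 CPM had a lower log2 fold change. The UBTF call depends on the scaling: with library totals in place of TMM factors its log2 fold change was -0.05 and its adjusted p 0.357, while the other 9 genes were still called lower. The TMM factors of the D2000 libraries were 1.17 and 1.19, against 0.950 to 1.04 in the other groups, and library totals moved the median of all genes from 0.06 to 0.29.

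**Figure D2:**
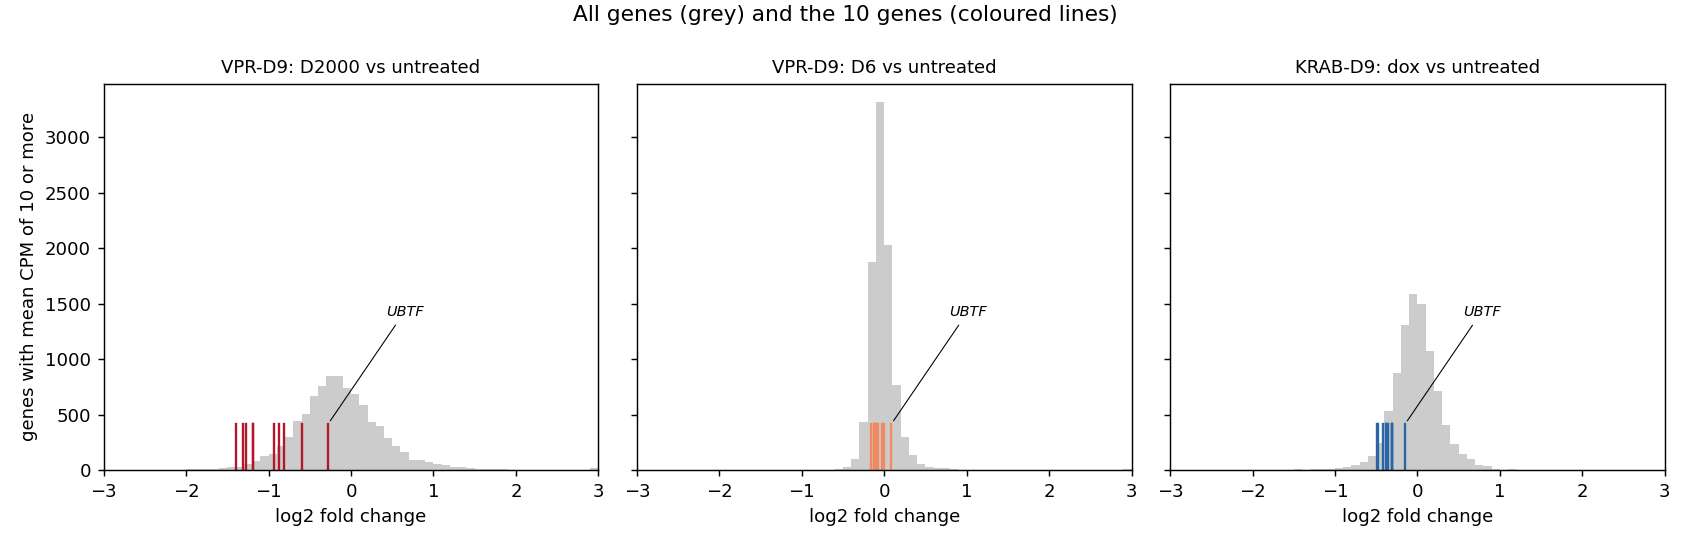
Number of genes (vertical axis) per log2 fold change (horizontal axis, bins of 0.1) for D2000, for D6 and for doxycycline in KRAB-D9 cells, each against untreated cells of its line, over the 9204 genes with at least 10 CPM. Values beyond the axis are in the end bins. Coloured lines mark the 10 genes: in D2000 they lie from -1.40 to -0.28, mostly in the left tail with UBTF and RRN3 nearer the centre, in D6 from -0.16 to 0.09, and in KRAB-D9 from -0.49 to -0.15.

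D6 cells had SAMD9 at much the same level as D2000 cells, and the 10 genes lay within 0.16 of their untreated level on the log2 scale. TCOF1 and NCL alone were called lower against untreated VPR-D9 cells, where 3.41% of all genes tested were called lower, and none was called higher. TCOF1 had 259 and 250 CPM in D6, against 288 and 279 CPM untreated (-0.16 ± 0.04, edgeR adjusted p = 0.0267). NCL had 1271 and 1335 CPM in D6, against 1403 and 1420 CPM untreated (-0.12 ± 0.04, edgeR adjusted p = 0.0491). The other 8 genes had log2 fold changes from -0.12 (NPM1, edgeR adjusted p = 0.124) to 0.09 (UBTF, edgeR adjusted p = 0.241). An unadjusted edgeR p under 0.05 was found for 6 of the 10 genes. The 3.41% refers to adjusted calls, and the share of all genes under the unadjusted cut was not counted. UBTF was the gene with both D6 libraries above both untreated ones, at 244 and 257 CPM against 237 and 234 CPM. Both D6 libraries lay below both untreated libraries for 8 genes, and RRN3 overlapped. How many of all genes separate in this way was not counted, so nothing is read from that number. Neither D6 call withstood the removal of a library: TCOF1 lost it without any 1 of the 4 libraries (adjusted p 0.0562 to 0.241), and NCL without D6 replicate 1 or either untreated library (0.141 to 0.447).

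Set directly against D6, D2000 had lower levels of all 10 genes, where 21.7% of the genes tested were called lower. The log2 fold changes ran from -1.37 ± 0.04 for NOLC1 (152 and 144 CPM in D2000, against 378 and 387 CPM in D6) to -0.36 ± 0.04 for UBTF (192 and 197 CPM, against 244 and 257 CPM), with a median of -0.94. NCL (-1.20), TCOF1 (-1.12), POLR1E (-1.11) and NPM1 (-1.07) again stood with NOLC1 at the low end. POLR1C (-0.82), POLR1A (-0.78), POLR1B (-0.71) and RRN3 (-0.59) came between them and UBTF. The edgeR adjusted p was 9.28e-10 for UBTF and smaller for the other 9 genes. The 3 comparisons among D2000, D6 and untreated VPR-D9 cells share their libraries and are not independent of each other.

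In KRAB-D9 cells, doxycycline alone also went with lower levels of all 10 genes, by smaller amounts. For this comparison 12.7% of the genes tested were called lower, and the median log2 fold change was -0.36 over the 10 genes and 0.02 over all genes tested. NOLC1 had 356 and 352 CPM with doxycycline, against 498 and 497 CPM in untreated KRAB-D9 cells (-0.49 ± 0.04, edgeR adjusted p = 2.18e-13). NCL had 1416 and 1412 CPM with doxycycline, against 1970 and 1977 CPM untreated (-0.48 ± 0.04, edgeR adjusted p = 2.82e-13). For both genes the replicates were almost equal and the groups far apart. TCOF1 had 242 and 268 CPM with doxycycline, against 330 and 349 CPM untreated (-0.41 ± 0.04, edgeR adjusted p = 2.23e-09). NPM1 had 2599 and 2534 CPM with doxycycline, against 3206 and 3143 CPM untreated (-0.31 ± 0.05, edgeR adjusted p = 1.24e-05).

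The subunits fell together in these cells. POLR1A had 232 and 232 CPM with doxycycline, against 289 and 288 CPM in untreated KRAB-D9 cells (-0.31 ± 0.04, edgeR adjusted p = 7.57e-08). POLR1B (-0.39 ± 0.05), POLR1C (-0.36 ± 0.06) and POLR1E (-0.31 ± 0.05) had edgeR adjusted p-values of 3.22e-06 or smaller. RRN3 had 44.7 and 45.8 CPM with doxycycline, against 57.8 and 58.3 CPM untreated (-0.36 ± 0.06, edgeR adjusted p = 8.79e-06). UBTF had 203 and 204 CPM with doxycycline, against 222 and 228 CPM untreated (-0.15 ± 0.04, edgeR adjusted p = 0.00571). For each of the 10 genes both doxycycline libraries lay below both untreated ones, a separation that was not counted over all genes. The UBTF call was lost without doxycycline replicate 1 (adjusted p 0.051) or without untreated replicate 2 (0.0727), and the other 9 kept theirs when any 1 library was left out.

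With IFN present, doxycycline in KRAB-D9 cells gave a like picture. Against IFN alone, cells with doxycycline and IFN had lower levels of 9 of the 10 genes, where 11.9% of genes tested were called lower, with a median log2 fold change of -0.34. NCL had 1551 and 1484 CPM with doxycycline and IFN, against 2166 and 1971 CPM with IFN (-0.45 ± 0.04, edgeR adjusted p = 2.48e-12). NOLC1 had 390 and 373 CPM with both, against 524 and 513 CPM with IFN (-0.44 ± 0.04, edgeR adjusted p = 4.12e-12). NPM1 had 2431 and 2304 CPM with both, against 3302 and 2873 CPM with IFN (-0.38 ± 0.05, edgeR adjusted p = 5.87e-07). The IFN libraries of NCL and NPM1 differed from each other more than those of other groups, and still did not overlap with those of doxycycline and IFN. UBTF was the exception: it had 228 and 224 CPM with both, against 221 and 241 CPM with IFN, groups that overlapped (-0.03, 95% interval -0.13 to 0.06, edgeR adjusted p = 0.665). Against untreated KRAB-D9 cells, doxycycline with IFN again had 9 genes lower, where 12.5% of genes tested were, from -0.42 for NPM1 to -0.24 for POLR1A, RRN3 and TCOF1, and UBTF at 0.01.

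**Figure D3:**
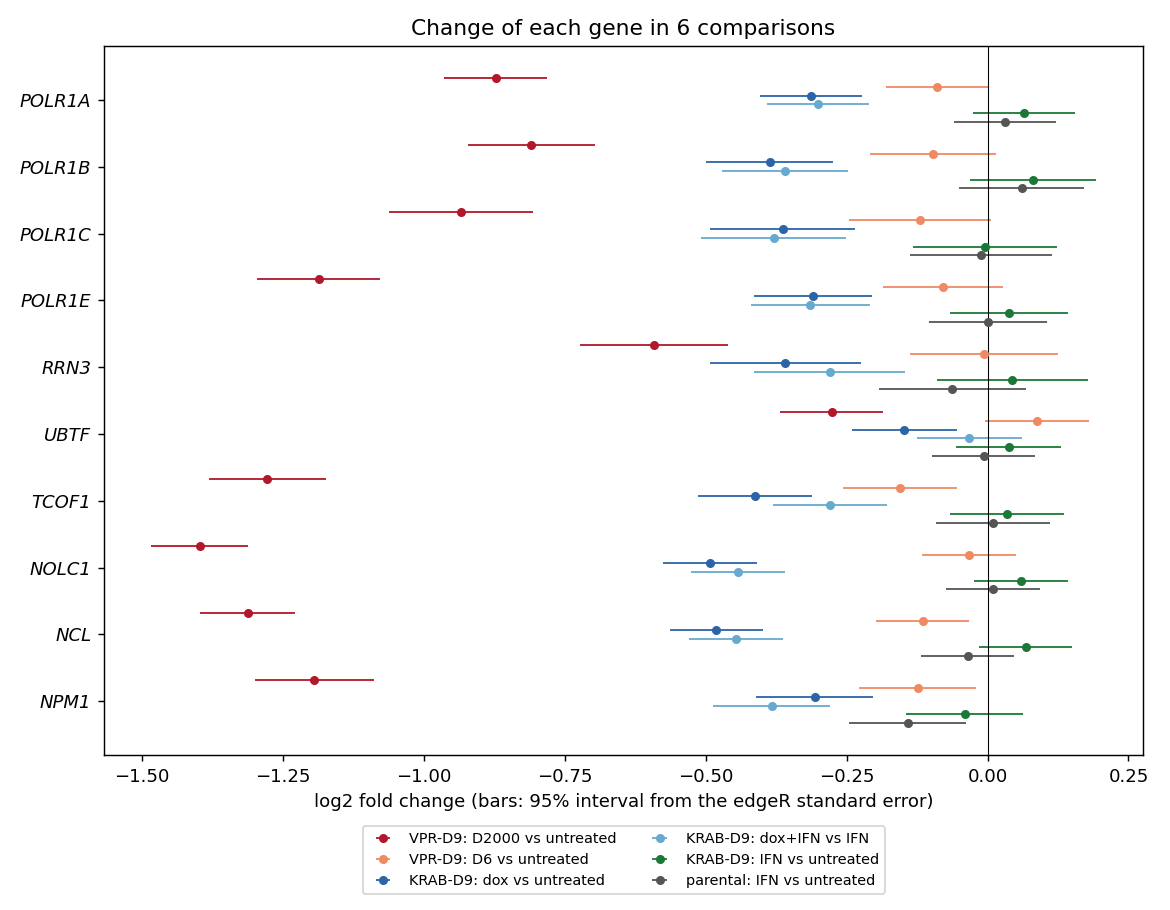
Log2 fold change (horizontal axis) of each of the 10 genes in the 6 main comparisons, with 95% intervals from the edgeR standard errors. D2000 lies furthest left for every gene, from -1.40 to -0.28, doxycycline in KRAB-D9 cells lies between -0.49 and -0.03 with and without IFN, and the IFN values cluster around 0.

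Fold changes with doxycycline were set against each other between the lines, as the log2 fold change of D2000 or D6 over untreated VPR-D9 cells minus that of doxycycline over untreated KRAB-D9 cells. D2000 had the more negative fold change for 9 of the 10 genes, where 19.1% of genes tested had a lower one, and UBTF did not pass (-0.13, 95% interval from -0.26 to 0.00, edgeR adjusted p = 0.0896), though it did with only the groups compared (-0.15, adjusted p = 0.0129). D6 had the less negative fold change for 9 of the 10, where 7.87% of genes tested had a higher one, and NPM1 did not pass (0.18, edgeR adjusted p = 0.0593). NPM1 passed under 6 other settings of edgeR (adjusted p from 5.62e-05 to 0.0469). They were DESeq2 size factors, library totals, upper quartile factors, no filter on low counts, the replicate block and only the groups compared. NPM1 did not pass with DESeq2 itself or with pseudogene counts added to RRN3 and NPM1. NOLC1 shows both differences between the lines. Its log2 fold change was -1.40 in D2000, -0.03 in D6 and -0.49 with doxycycline in KRAB-D9 cells. Both sets of differences use the same untreated VPR-D9, doxycycline and untreated KRAB-D9 libraries, so they are not independent.

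None of the 10 genes passed the threshold for IFN without doxycycline in either line. In parental cells the log2 fold changes ran from -0.14 to 0.06, where 4.34% of genes tested were called in either direction, and 1 gene had an unadjusted p under 0.05. That gene, NPM1, had 3377 and 3201 CPM with IFN, against 3582 and 3674 CPM without (-0.14 ± 0.05, edgeR adjusted p = 0.0931), and it was called lower with upper quartile factors (-0.18, adjusted p = 0.0289). In KRAB-D9 cells the range was -0.04 to 0.08, where 6.4% of genes tested were called, and 0 of the 10 genes had an unadjusted p under 0.05 in edgeR. DESeq2 called 0 of the 10 in either line. The 95% intervals of all these values lay within -0.25 and 0.19, which leaves room for changes of about that size. For NPM1 and NCL the KRAB-D9 result turned on the discordant IFN libraries. Without IFN replicate 1 the log2 fold change of NPM1 was -0.14, and without IFN replicate 2 that of NCL was 0.13.

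IFN on top of doxycycline in KRAB-D9 cells had 2 of the 10 genes called higher, against doxycycline alone, where 3.12% of genes tested were called higher. UBTF had 228 and 224 CPM with both, against 203 and 204 CPM with doxycycline (0.15 ± 0.04, edgeR adjusted p = 0.0181). TCOF1 had 286 and 287 CPM with both, against 242 and 268 CPM with doxycycline (0.17 ± 0.04, edgeR adjusted p = 0.0176). Both libraries with IFN lay above both without it for 8 genes, and NPM1 lay below (-0.12, edgeR adjusted p = 0.186). The 3.12% is the share of genes called, and the share of all genes separated in this way was not counted. The UBTF call was lost without any 1 of the 4 libraries (adjusted p 0.0791 to 0.161), and the TCOF1 call without either library of doxycycline with IFN or without doxycycline replicate 1 (0.0994 to 0.509). The test of whether IFN altered the doxycycline fold change gave 0 of 10 genes, where 0.158% of genes tested were called, with 1 unadjusted p under 0.05 (TCOF1, 0.13, edgeR adjusted p = 0.54) and none called by DESeq2. Without IFN replicate 2 the values of this test were 0.21 for TCOF1 and -0.17 for NPM1, so the result of 0 genes rests on keeping that library. The IFN fold changes of KRAB-D9 and parental cells differed for 0 of 10 genes, where 0.303% of genes tested were called. For this difference 0 of the 10 had an unadjusted p under 0.05 in edgeR, and none was called by DESeq2. Without KRAB-D9 IFN replicate 2 it was 0.20 for NPM1 and 0.17 for NCL, so this result also rests on keeping that library.

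The untreated lines already differed. Untreated VPR-D9 cells had lower levels than untreated parental cells of 9 of the 10 genes, where 18.2% of genes tested were called lower. NPM1 had 2275 and 2337 CPM in VPR-D9, against 3582 and 3674 CPM in parental cells (-0.65 ± 0.05). NCL had 1403 and 1420 CPM in VPR-D9, against 2011 and 1988 CPM in parental cells (-0.50 ± 0.04). POLR1C alone was not called, at 70.4 and 68.0 CPM in VPR-D9, against 69.3 and 72.3 CPM in parental cells (-0.03 ± 0.06, edgeR adjusted p = 0.695). The RRN3 call (-0.17, edgeR adjusted p = 0.0172) was lost without untreated VPR-D9 replicate 1 or 2 or parental replicate 1, and with library totals (-0.10, adjusted p = 0.179).

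Untreated KRAB-D9 cells differed from the parental line in fewer of the 10 genes. RRN3 (-0.24 ± 0.06), UBTF (-0.25 ± 0.04) and NPM1 (-0.19 ± 0.05) were lower than in untreated parental cells and POLR1E was higher (0.14 ± 0.05, edgeR adjusted p = 0.0162), where 14.3% of genes tested were called lower and 14.2% higher. UBTF had 222 and 228 CPM in KRAB-D9, against 270 and 265 CPM in parental cells, without overlap. The POLR1E call was lost without untreated KRAB-D9 replicate 1 or either parental library (adjusted p 0.0697 to 0.163), and RRN3 lost its call without parental replicate 1 (-0.18, adjusted p = 0.0768). Between the engineered lines, untreated VPR-D9 cells had 7 genes lower than untreated KRAB-D9 cells, where 19.7% of genes tested were called lower. NCL (-0.48), POLR1E (-0.48) and NPM1 (-0.46) were the furthest apart, and POLR1C (0.00), RRN3 (0.07) and UBTF (0.07) were not called. With library totals RRN3 (0.14, edgeR adjusted p = 0.0442) and UBTF (0.13, edgeR adjusted p = 0.00621) were called higher in VPR-D9. So were 5124 of the 22143 genes tested under that scaling.

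D2000 had the lowest mean of the 9 groups for each of the 10 genes. For 9 of them it was called below the next-lowest group, which was D6 or a KRAB-D9 group with doxycycline. The narrowest of these was RRN3 (40.6 CPM in D2000, 45.3 CPM in KRAB-D9 with doxycycline, edgeR adjusted p = 0.0234). Neither count was made over all genes, so how common this order is remains unknown. UBTF in D2000 (195 CPM) was not separated from KRAB-D9 with doxycycline (203 CPM; edgeR adjusted p = 0.196). Across the 9 group means the log2 profile of POLR1A followed the mean profile of the 10 genes most closely (Pearson r = 0.999), then NOLC1 (0.998), TCOF1 (0.994), POLR1B (0.993), NCL (0.992), NPM1 (0.979), POLR1E (0.965) and POLR1C (0.949). The initiation factors followed it least, RRN3 at 0.836 and UBTF at 0.741. Among pairs, POLR1A and NOLC1 were most alike (0.997) and POLR1E and UBTF least (0.558). These values describe 9 groups that share libraries, scaling and the 1 extreme group D2000, and carry no test. Each of the 10 genes is also part of the mean profile it is set against, which can raise its r. Of 12359 other genes, those closest to the mean profile were FAM136A, POLE3, DDX21, GEMIN5 and SDHD (r = 0.999 to 0.997). The gene closest to UBTF was MRPL58 (0.973).

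Ratios of counts between genes within a library do not depend on the scaling, and they show the unequal change directly. TCOF1 had 0.605 and 0.597 counts per UBTF count in the D2000 libraries, 1.06 and 0.973 in D6 and 1.21 and 1.19 in untreated VPR-D9 cells. UBTF had 1.34 and 1.47 counts per POLR1A count in D2000, 1.02 and 1.08 in D6 and 0.934 and 0.921 in untreated VPR-D9 cells, where KRAB-D9 and parental libraries ran from 0.761 to 0.941. POLR1E had 0.251 and 0.278 counts per POLR1A count in D2000, against 0.334 and 0.323 in untreated VPR-D9 cells. In all these ratios the D2000 libraries stood apart from the other 16. NCL had 0.545 and 0.557 counts per NPM1 count with doxycycline in KRAB-D9 cells, against 0.615 and 0.629 in untreated KRAB-D9 cells. For this ratio D2000 (0.555 and 0.573) was no extreme, since parental untreated cells had 0.561 and 0.541. With 2 libraries a group the ratios are given as values without a test.

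**Figure D4:**
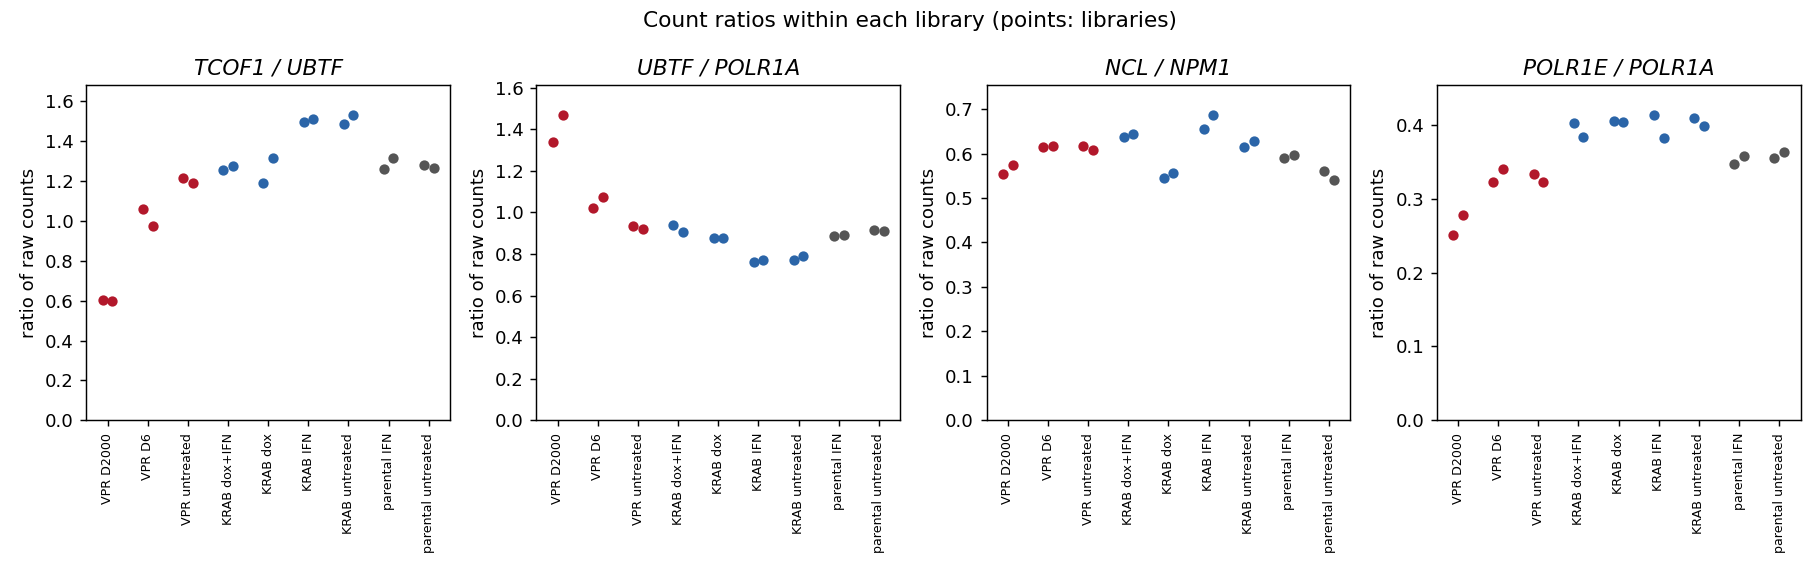
Ratio of raw counts between pairs of the 10 genes within each library (points; vertical axes start at 0), by group. The D2000 libraries are lowest for TCOF1 over UBTF (0.605 and 0.597) and for POLR1E over POLR1A (0.251 and 0.278) and highest for UBTF over POLR1A (1.34 and 1.47).

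Other genes of the pathway are given from lists chosen by function. Of all genes tested, 24.2% were called lower and 21.9% higher in D2000, 12.7% lower and 12% higher with doxycycline in KRAB-D9 cells, 11.9% lower and 10.4% higher with doxycycline and IFN against IFN, and 3.41% lower and 3.19% higher in D6. Under library totals, 3286 of the 22143 genes tested were lower and 7195 higher in D2000. Doxycycline in KRAB-D9 cells then had 2368 lower and 3162 higher. The counts below stand beside these values for the same scaling and carry no test of their own. Of 16 other nucleolar proteins, 15 were lower and 1 higher in D2000 than in untreated VPR-D9 cells, with a median log2 fold change of -1.14. LYAR (-1.45 ± 0.05), a nucleolar growth regulator, and DDX21 (-1.43 ± 0.04), an RNA helicase, fell most, and NOP53, a ribosome assembly factor of the large subunit, rose (0.33 ± 0.07). Doxycycline in KRAB-D9 cells had 13 of the 16 lower and 1 higher, with a median of -0.37, and the same rule named LYAR (-0.56), DDX21 (-0.50) and, as the riser, NOP53 (0.27). With doxycycline and IFN against IFN, 14 were lower and 1 higher. In D6, 4 of the 16 were lower, with MKI67, a proliferation marker that coats chromosomes (-0.20), and FBL, the methyltransferase fibrillarin (-0.19), the furthest. That D6 count was 3 with DESeq2 size factors and 2 with library totals or upper quartile factors. Of all genes tested, 754 (3.41%) were lower in D6 with TMM and 673 with DESeq2 size factors. The number was 394 with library totals and 602 with upper quartile factors.

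Of 9 other subunits of RNA polymerase I, 8 were lower and 1 higher in D2000, with a median log2 fold change of -0.54. POLR1G (-1.95 ± 0.09), which is specific to this polymerase, had a more negative fold change than any of the 10 genes, POLR1H followed (-0.68 ± 0.08), and POLR2H, shared by all 3 nuclear polymerases, rose (0.38 ± 0.05). With library totals 5 of the 9 were lower. In KRAB-D9 cells with doxycycline 4 of the 9 were lower, led by POLR1G (-0.97 ± 0.09) and POLR2F (-0.38 ± 0.06), and in D6 POLR1G was lower (-0.31), a call lost with library totals, and POLR2H higher (0.44). Of 8 other initiation and termination factors, 6 were lower and 1 higher in D2000, with a median of -0.41; with library totals 4 were lower and 2 higher, with a median of -0.18. TAF1A, a subunit of the selectivity factor (-0.72 ± 0.09), and TBP (-0.71 ± 0.06) fell most. CAVIN1, a release factor for RNA polymerase I that is also a caveolar coat protein, rose in D2000 (0.97 ± 0.05) and D6 (0.52 ± 0.05). It fell with doxycycline in KRAB-D9 cells (-0.77 ± 0.05), where 5 of the 8 were lower, TTF1 among them (-0.35).

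The other nuclear polymerases were described in the same way. Of 11 subunits that RNA polymerase III does not share with RNA polymerase I, 10 were lower and 1 higher in D2000, with a median of -0.55. POLR3G (-1.44 ± 0.08) and POLR3K (-1.08 ± 0.05) fell most, and POLR3GL, the paralogue that takes the place of POLR3G in the enzyme, rose (0.51 ± 0.10). With doxycycline in KRAB-D9 cells 8 were lower and 1 higher: POLR3G (-0.66) and POLR3A (-0.35) fell most and POLR3GL rose (0.56). Of 7 subunits found only in RNA polymerase II, 4 were lower, POLR2I (-0.75 ± 0.17) and POLR2C (-0.39 ± 0.05) most, and 1, the catalytic POLR2A, was higher (0.20 ± 0.04) in D2000, with a median of -0.14. With library totals that median was 0.09, with 2 lower and 4 higher. Of all 22143 genes tested in D2000, 24.2% were lower and 21.9% higher with TMM. Under library totals 3286 of them were lower and 7195 higher. In KRAB-D9 cells with doxycycline 4 of the 7 were lower, POLR2A among them (-0.30). Of 10 regulators of ribosomal DNA chromatin, 6 were lower and 3 higher in D2000, with a median of -0.14. With library totals 4 were lower and 4 higher, with a median of 0.09. MYBBP1A, a nucleolar MYB-binding protein, fell most (-1.67 ± 0.07), then BAZ1B (-0.74 ± 0.03), while the demethylases KDM2B (0.29 ± 0.05) and PHF8 (0.19 ± 0.06) rose. MYBBP1A also led the fallers of this list in KRAB-D9 cells with doxycycline (-0.71 ± 0.06), where 4 of 10 were lower and 1 higher, or 3 lower and 2 higher with library totals.

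**Figure D5:**
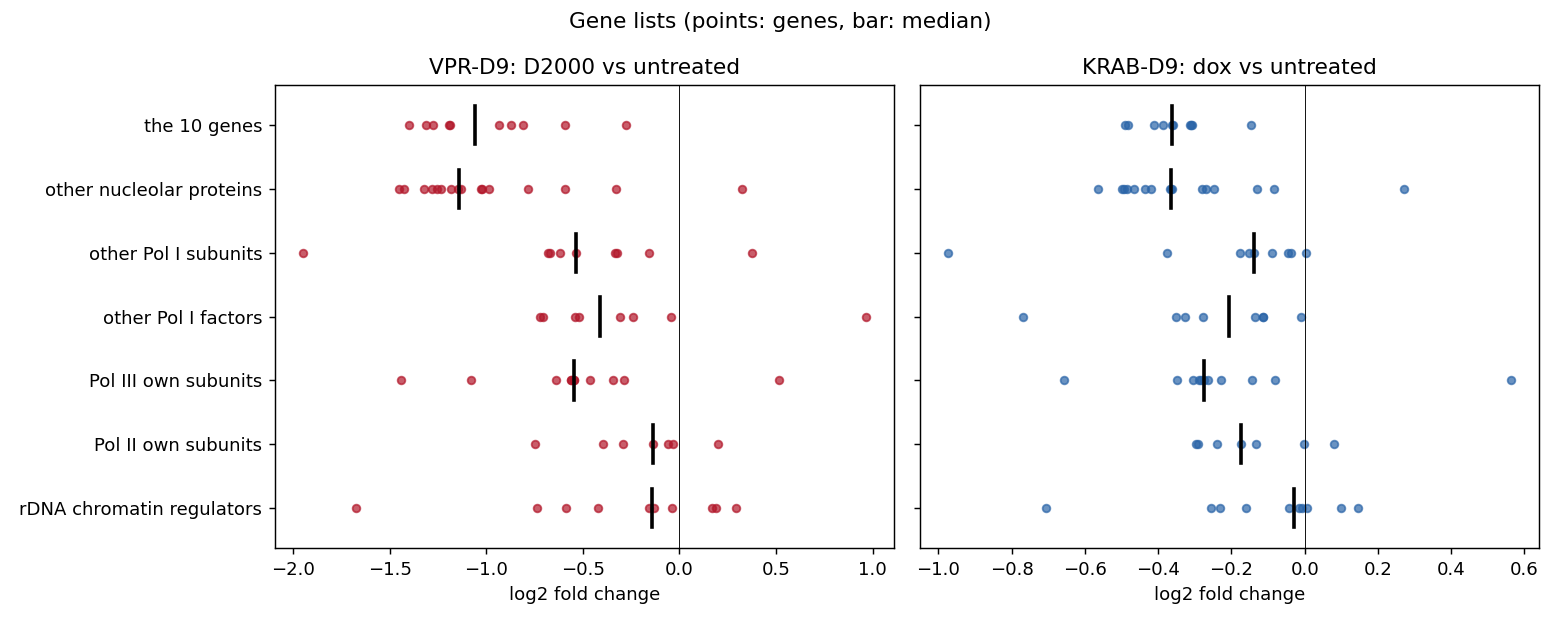
Log2 fold change (horizontal axis) of the 10 genes and of the 6 other lists, in D2000 and with doxycycline in KRAB-D9 cells, each against untreated cells of its line. Points are genes and black bars medians, which run from -1.14 to -0.14 in D2000 and from -0.37 to -0.03 in KRAB-D9 cells with TMM scaling. With library totals the medians nearest 0 change sign, to 0.09 for the subunits of RNA polymerase II and the ribosomal DNA chromatin list in D2000 and to 0.01 for the chromatin list in KRAB-D9 cells.

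IFN called 4.34% of all genes tested in parental cells and 6.4% in KRAB-D9 cells, in either direction. In parental cells with IFN 2 nucleolar genes and 1 subunit of RNA polymerase III were lower than in untreated parental cells, MKI67 (-0.17), DDX21 (-0.13) and CRCP (-0.21), and no gene of the other lists was called in either direction. In KRAB-D9 cells with IFN 2 of the 16 nucleolar genes, NOP53 (-0.27) and FBL (-0.17), and 1 of the 10 chromatin regulators, PHF8 (-0.25), were lower than in untreated KRAB-D9 cells. Of the 11 subunits of RNA polymerase III 1 was higher, POLR3A (0.19), and 1 lower, and no gene of the other lists was called. Nothing is read from these counts about a list.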

How the data were processed

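Polyadenylated RNA of 18 K562 libraries, 2 for each of 9 groups, was sequenced with a stranded kit, per the labels' protocols. The authors deposited raw read counts per gene, whole numbers that differ in total between libraries (32.7 M to 63.0 M counts). Per the submitters' processing notes, the genome build was GRCh38.p13 and the tools were featureCounts 2.0.2, STAR 2.7.8a, cutadapt 2.10 and FastQC 0.11.9. The sources used here do not give the annotation release, the strand setting or the treatment of multimapping reads, which leaves genes with pseudogenes or overlapping neighbours uncertain.

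Groups follow the labels. Genes were filtered with filterByExpr by group, leaving 22143 of 41285, and scaled by TMM. A single robust quasi-likelihood model with 9 group means was fitted in edgeR 4.0.16 (R 4.3.3) to all 18 libraries (9 residual degrees of freedom, common biological coefficient of variation 0.0569), and 16 comparisons were tested, with Benjamini-Hochberg adjustment over all genes and a threshold of 0.05. A standard error is |log2 fold change| divided by the root of F. The 95% intervals use a t distribution with 9 degrees of freedom and are wider than the edgeR test itself implies. The code was tested on simulated data.

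The 10 genes, the lists, the tests and most comparisons were chosen with earlier results of these data known. All 10 genes are named; from each other list, at most 2 called genes that rose most and 2 that fell most are, in each main comparison. Likeness is Pearson's r across 9 group means of log2 CPM with a prior count of 2, over genes with at least 1 CPM. Alternatives were DESeq2 1.42.0, other scalings, no filter, only the groups compared, pseudogene counts added to RRN3 and NPM1, a replicate block and leaving out each library. A few genes of the marker and polymerase lists are not reported here by name.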

Additional observations from a re-analysis of the deposited data

Results flagged for a closer look

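The log2 fold changes with doxycycline differed between the lines by a test of the difference itself (edgeR quasi-likelihood test, Benjamini-Hochberg adjusted over all genes). For D2000 over untreated VPR-D9 cells minus doxycycline over untreated KRAB-D9 cells, the differences were -0.91 for NOLC1, -0.89 for NPM1, -0.88 for POLR1E, -0.87 for TCOF1, -0.83 for NCL, -0.57 for POLR1C, -0.56 for POLR1A, -0.42 for POLR1B and -0.23 for RRN3. The scaffold genes and POLR1E thus stood at the far end and RRN3 at the near end. The edgeR adjusted p was 0.028 for RRN3 and 5.33e-06 or smaller for the other 8. The RRN3 call was lost without any 1 library other than doxycycline replicate 1 (adjusted p 0.0513 to 0.101), with library totals (-0.04), with upper quartile factors (-0.15), without the filter on low counts (-0.22) and with pseudogene counts added (-0.19).

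For D6 over untreated VPR-D9 cells minus the same KRAB-D9 fold change, the differences were 0.46 for NOLC1, 0.37 for NCL, 0.35 for RRN3, 0.29 for POLR1B, 0.26 for TCOF1, 0.24 for POLR1C, 0.24 for UBTF, 0.23 for POLR1E and 0.22 for POLR1A. The edgeR adjusted p ran from 1.43e-08 for NOLC1 to 0.0296 for POLR1C. POLR1C lost its call without any 1 library other than untreated KRAB-D9 replicate 1 (adjusted p 0.0531 to 0.19). POLR1E lost it without D6 replicate 2, untreated VPR-D9 replicate 2 or untreated KRAB-D9 replicate 1 (0.0671 to 0.119), and TCOF1 without doxycycline replicate 1 (0.0815).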

How the results depend on the processing

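No gene of the 10 that was called changed direction under any setting tried: of 720 called values under other settings 705 stayed called, and of 432 with a library left out 391 did. With library totals in place of TMM factors, D2000 against untreated VPR-D9 cells had 3286 genes called lower (5348 with TMM), D2000 against D6 2945 (4797) and the D2000 minus KRAB-D9 difference 2450 (4236), with UBTF at 0.0634 in that difference (-0.13 with TMM, called in neither). With only the groups compared UBTF was called lower there (-0.15, adjusted p 0.0129). The cause of that shift was not tested. The share called higher became 68.6% for D2000 against untreated cells, 68.8% against D6, 69.0% for D6, 61.4% for doxycycline and IFN against IFN, 60.6% against untreated KRAB-D9 cells and 63.2% for the D2000 difference, from 47.6, 46.4, 48.4, 46.7, 49.9 and 38.9% with TMM. With upper quartile factors it was 46.3% for IFN in parental cells, 41.0% in KRAB-D9 cells, 45.5% for IFN on top of doxycycline and 49.0% for the D2000 difference, from 69.9, 62.2, 63.9 and 38.9%.

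D6 against untreated cells had 2 of the 10 genes lower in the fit reported, 1 with DESeq2's size factors, upper quartile factors or the replicate block, and 0 with library totals. With only the groups compared it had 3, NPM1 gained (-0.11, adjusted p 0.00131), and without the filter 2, NPM1 gained (0.0196) and NCL lost (0.0585). Of all genes, D6 had 673 called lower with DESeq2's size factors, 602 with upper quartile factors, 743 with the replicate block and 394 with library totals. The number was 701 without the filter and 1161 with only the groups compared (754 in the fit reported). With only the groups compared UBTF was called higher, 1 against 0, as were 1166 genes of all (707). IFN on top of doxycycline had 4 of the 10 higher with library totals or DESeq2, 0 with upper quartile factors, and 1 lower with only the groups compared. Of all genes, 784 were higher with library totals, 815 with DESeq2 and 541 with upper quartile factors (691 in the fit reported). With only the groups compared 514 genes of all were lower. IFN in parental cells had 1 of the 10 lower, NPM1, with upper quartile factors, without the filter, with the replicate block and with only the groups compared. Genes of all called lower numbered 650, 227, 274 and 515, in that order (289 in the fit reported). Untreated VPR-D9 against KRAB-D9 cells had 2 of the 10 higher with library totals, where 5124 of all 22143 genes tested were called higher. Untreated KRAB-D9 against parental cells had 0 of the 10 higher without the filter, where 2842 genes of all were. The test of whether IFN altered the doxycycline fold change called 35 genes, 74 without the filter, 64 with DESeq2 and 14 with only the groups compared. The difference of IFN fold changes between lines called 67, 133 without the filter and 22 with only the groups compared, and IFN in KRAB-D9 cells 1417, and 465 with only the groups compared.

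With 1 library left out, the remaining library of its group was assumed to vary like the other groups. D6 then had 0 to 1 of the 10 lower and 301 to 404 genes of all, and IFN on top of doxycycline 0 to 1 higher and 431 to 457 genes. IFN called 467 to 781 genes in parental cells and 815 to 2202 in KRAB-D9 cells, with 0 to 1 of the 10 in each direction, NCL from -0.0006 to 0.13 and NPM1 from -0.14 to 0.0548. The IFN by doxycycline test called 17 to 769 genes and 0 to 1 of the 10 in each direction, with NPM1 from -0.17 to 0.0252. The IFN difference between lines called 20 to 992 genes and 0 to 2 of the 10 higher. Untreated KRAB-D9 against parental cells had 0 to 1 of the 10 higher. The high counts came without KRAB-D9 IFN replicate 2.

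Same-numbered libraries showed no consistent pairing. Over 36 pairs of groups the correlation of deviations ran from -0.18 to 0.27, with 4 over 0.1 and 5 under -0.1. Of 18 libraries, 12 correlated best with their own number. The 2 libraries of a group mirror each other in this measure and always give the same answer. Besides the D6 and parental IFN counts above, the replicate block raised the count with a less negative fold change in D6 than in KRAB-D9 cells to 10, against 9, by NPM1 (0.18, adjusted p 0.0297), and changed no other count of the 10 genes.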
